A study of Rattus norvegicus with 10 samples.

Results

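The 8 genes described here mark nerve fibres and the Schwann cells that wrap them. They are Ncam1, Sox10, S100b, Mbp and Cdh19 on the side of the glia and of cell adhesion, and Nefl, Prph and Tubb3 on the side of the axon. They were listed by symbol, and all probes whose RefSeq accession carries 1 of these symbols were taken. This gave 10 probes, 2 each for S100b and Mbp and 1 for each other gene, among 15168 named genes on the array. The arrays read the messenger RNA of whole submandibular glands, 1 of the paired salivary glands below the jaw, taken from male rats at 14 weeks of age. The 5 spontaneously hypertensive rats (SHR) are of an inbred line whose blood pressure rises with age, and the 5 Wistar Kyoto rats (WKY), matched to them for age and weight, are its normotensive control strain. The labels give no treatment for either strain. Arrays are named by strain and by the paired number of the sample title, such as SHR 3-3.

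Salivary glands are driven by autonomic nerves. Parasympathetic fibres from the submandibular ganglion set fluid secretion and sympathetic fibres from the superior cervical ganglion set protein secretion, and both run through the gland in bundles ensheathed by Schwann cells. The cell bodies of sympathetic neurons lie outside the gland, so that the RNA of a gland holds little of theirs, whereas Schwann cells and parasympathetic ganglion cells lie within or beside it. Several of the genes are also used by other cells. Sox10 is expressed by salivary acinar and intercalated duct cells as well as by glia, S100b by adipocytes, and Ncam1 by developing muscle and, in human, by natural killer (NK) cells.

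On each array 94.8% to 97.7% of spots were well above background and 0 were saturated. A level is given here as the log2 signal relative to the array's 75th percentile, so that 0 is that percentile and probes of different genes cannot be ranked against each other. With 5 arrays per strain, their number sets how precise a value can be. Arrays with the same recorded scan date were taken as 1 slide, and a slide here means such a group. Only slide 2 held both strains, with SHR 2-1 beside WKY 1-5, 4-1 and 4-2. The other SHR arrays were on slide 1, and WKY 1-2 and 1-3 on slide 3. SHR 3-3 had the lowest 75th percentile of signal (333, against 431 to 648 on the other arrays) and lay far from the other SHR arrays in 5 of the genes named here, so counts are also given without it. All 14 measured acinar genes and all 12 measured duct genes were above background on all 10 arrays. The same held for all 13 measured skeletal muscle genes, and 14188 of the 14711 genes tested had such a probe. Measured genes are those that passed the background filter, so these counts do not identify the tissue.

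Of the 8 genes 7 could be tested, and 1 of them, Ncam1, was lower in SHR, while 0 were higher. Over all 14711 genes tested, 2.85% were called lower, 1.51% higher and 4.36% either way (limma, adjusted p below 0.05). These shares are the base for each count of calls below. The other 6 genes tested did not pass, with log2 differences (SHR minus WKY) of −0.45 to 0.03 and limma adjusted p of 0.112 to 0.948. The count was the same without SHR 3-3, where Ncam1 was again the 1 gene called. The median difference of the 7 was −0.31, against −0.02 for all genes tested. It was −0.05 with each gene's kept probes averaged, −0.16 with the slide as a block or on slide 2 alone, −0.11 with the slide as a random block, −0.10 without WKY 1-2 and −0.15 without WKY 1-3. Levels in a whole gland cannot tell fewer nerve or glial cells from less RNA in each cell.

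**Figure D1:**
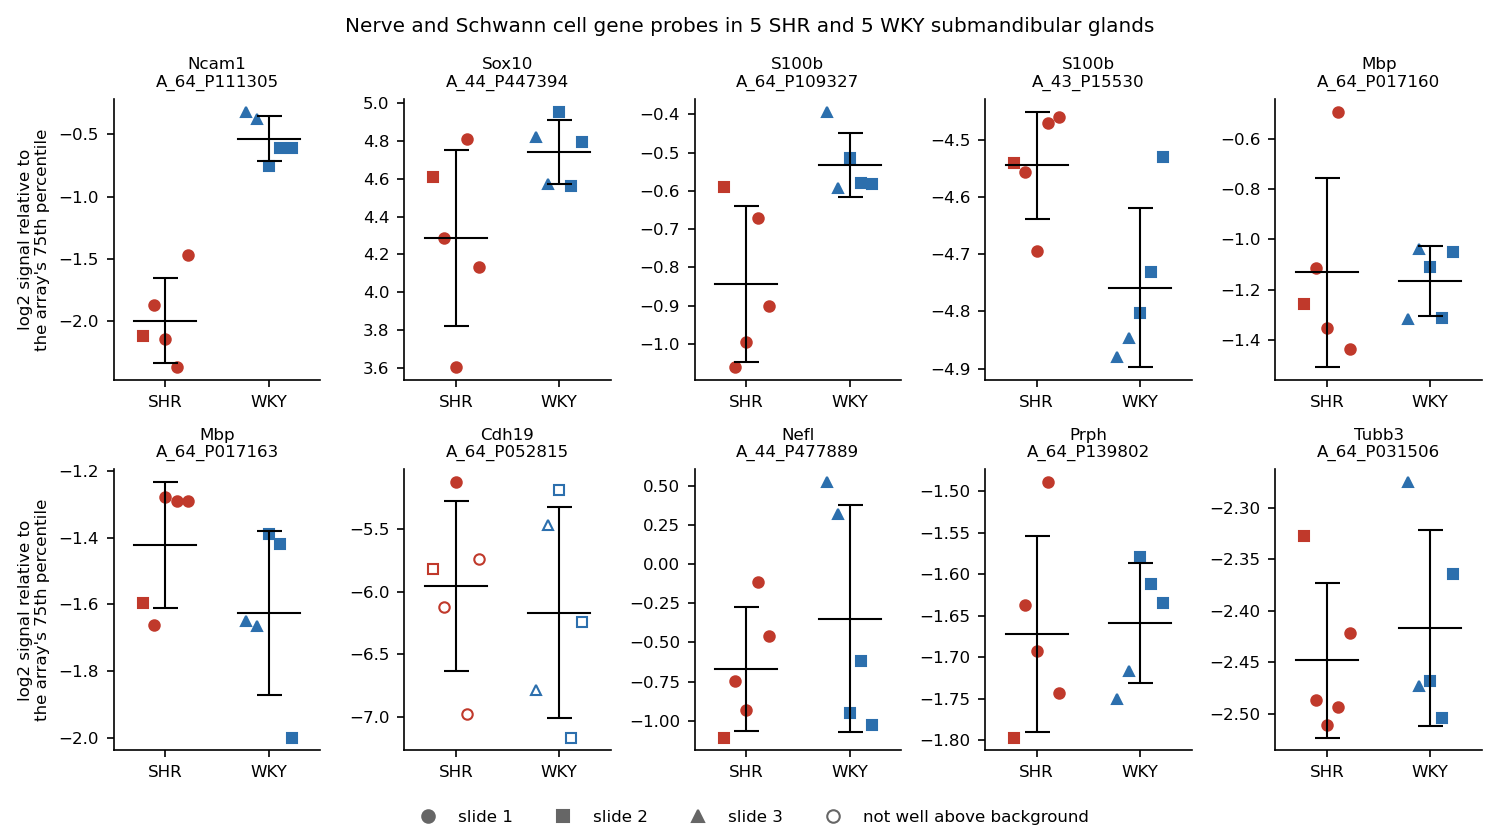
Level of each of the 10 probes (log2 signal relative to the array's 75th percentile, vertical axis) on the 5 SHR and 5 WKY arrays. Each point is 1 rat, its shape the slide, open where the probe was not well above background, and the bars are the mean and SD of each strain. Only in the Ncam1 panel do the strains not overlap.

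Ncam1 encodes the neural cell adhesion molecule, an immunoglobulin-family protein that binds its like on neighbouring cells and is carried by axons, non-myelinating Schwann cells and neurons. Its level was −2.12, −1.87, −2.14, −2.37 and −1.47 in SHR 2-1, 2-3, 3-1, 3-3 and 3-4, against −0.32, −0.37, −0.76, −0.61 and −0.61 in WKY 1-2, 1-3, 1-5, 4-1 and 4-2. Every SHR array lay below every WKY array, with a gap of 0.72 between the highest SHR and the lowest WKY value. In linear processed signal the probe read 64.6 to 175 units in SHR and 333 to 403 units in WKY, and it was well above background on all 10 arrays. The mean level was −1.99 ± 0.34 in SHR and −0.53 ± 0.18 in WKY (SD, n = 5 each). Ncam1 thus fell by 1.46 ± 0.15 (SE) on the log2 scale, which makes it 2.75-fold lower in SHR (95% interval of the log2 difference −1.80 to −1.12, limma adjusted p = 1.7e-04). The exact permutation test over the 10 arrays, two-sided, gave p = 0.00794, the smallest that 5 against 5 can give. Strains without overlap were found in 1 of the 7 genes, and in 7.25% of all genes tested.

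The Ncam1 difference was seen within 1 slide as well. On slide 2, where both strains were scanned together, SHR 2-1 had a level of −2.12 while WKY 1-5, 4-1 and 4-2 had −0.76, −0.61 and −0.61. The log2 difference there was −1.46 (limma adjusted p = 0.0247, with the single SHR array assumed to vary like the WKY arrays). With the slide as a block over all arrays, a fit that rests on that same contrast, it was also −1.46 and the call was lost (adjusted p = 0.0829). Leaving out each array in turn gave −1.59 to −1.37, and all 10 of these fits kept the call (adjusted p up to 0.00102). Ncam1 has 1 named probe on the array, designed to accession NM_031521, so no other named probe of it could be set beside this result. Of the 30367 probes 12362 got no symbol, and whether any of those reads Ncam1 was not tested.

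**Figure D2:**
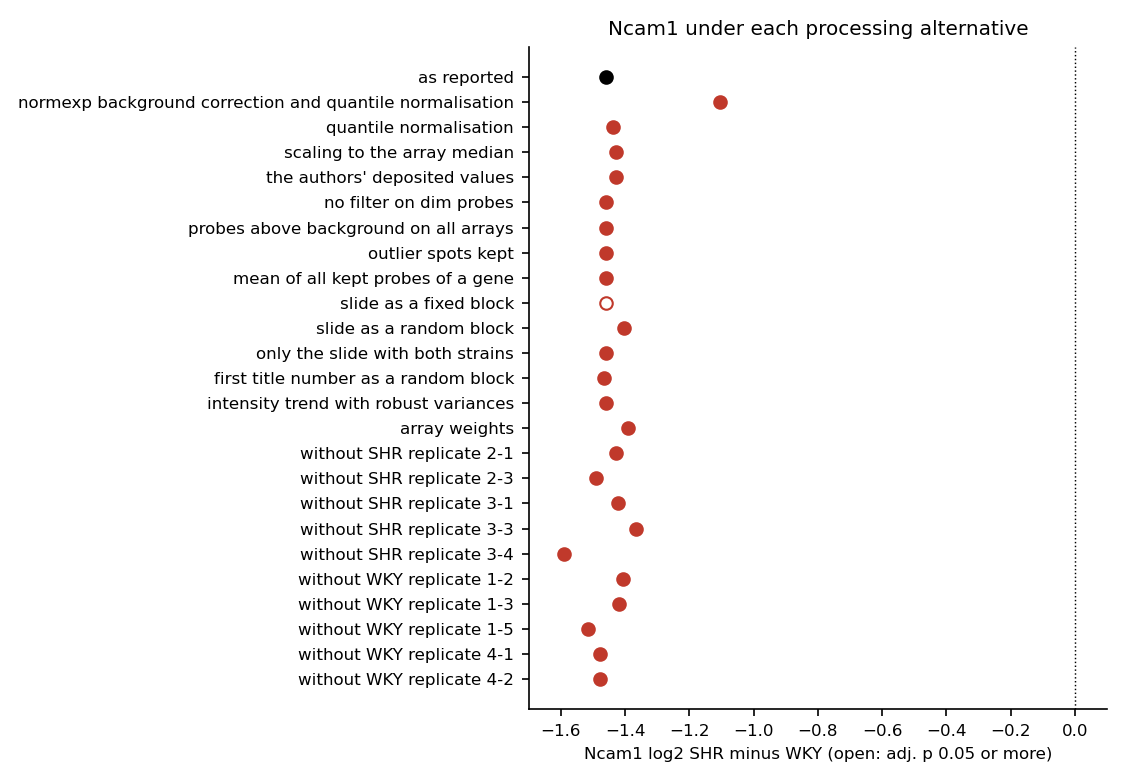
Log2 difference of Ncam1 (SHR minus WKY, horizontal axis) as reported and under each processing alternative, with filled points where the limma adjusted p is below 0.05. The points run from −1.59 to −1.10, and the 1 open point is the slide as a fixed block.

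Sox10, the transcription factor that specifies Schwann cells and drives myelin genes, had a level of 4.61, 4.28, 3.60, 4.81 and 4.13 in SHR 2-1, 2-3, 3-1, 3-3 and 3-4, and 4.82, 4.57, 4.96, 4.56 and 4.79 in WKY 1-2, 1-3, 1-5, 4-1 and 4-2. The SHR arrays were more spread out (SD 0.47, against 0.17 in WKY, n = 5 each), and 3 of them lay below all WKY arrays while SHR 2-1 and SHR 3-3 lay among them. The log2 difference was −0.45 ± 0.19 (SE, 95% interval −0.87 to −0.04), which did not pass over all genes (limma adjusted p = 0.205; exact permutation p = 0.0873). SHR 3-1 was the lowest array, and without it the difference was −0.28. On slide 2 and with the slide as a block it was −0.16 (adjusted p = 0.916 on slide 2 alone). Without SHR 3-3 it was −0.58 (adjusted p = 0.0777).

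S100b, a small calcium-binding protein used as a marker of Schwann cells, was read by 2 probes designed to the same accession, NM_013191, which went opposite ways. Probe A_64_P109327, the one that stood for the gene, had levels of −0.59, −1.06, −0.99, −0.67 and −0.90 in SHR 2-1, 2-3, 3-1, 3-3 and 3-4, against −0.39, −0.59, −0.51, −0.58 and −0.58 in WKY 1-2, 1-3, 1-5, 4-1 and 4-2. Of the SHR arrays 4 lay below all WKY arrays, and SHR 2-1 lay level with WKY 1-3. Probe A_43_P15530, spotted 10 times, was dim, with a processed signal of 15.1 to 27.6 units. On each array 60% to 100% of its spots were well above background, the lowest share being that of SHR 3-4 and WKY 1-2. It had levels between −4.69 and −4.46 in SHR and between −4.88 and −4.53 in WKY, with 2 SHR arrays above all WKY arrays.

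The first S100b probe differed by −0.31 ± 0.10 (SE) and the second by 0.21 ± 0.09, and neither passed in the fit of all 29266 kept probes (limma adjusted p = 0.126 and 0.222), in which 3.84% of probes were called. Their 95% intervals were −0.54 to −0.08 and 0.02 to 0.41. The exact permutation test gave p = 0.0159 for the first and p = 0.0317 for the second, both unadjusted. The authors' deposited values gave the same signs, −0.28 and 0.29. Across the 10 arrays, with the strain means removed, the pair of probes had a correlation of 0.06, given as a description. With the slide as a block, and on slide 2, the first probe differed by −0.03, and the mean of both probes differed by −0.05 over all arrays.

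Mbp, myelin basic protein, compacts the myelin sheath, and its gene also makes Golli transcripts used outside myelin. It too was read by 2 probes, designed to different transcript accessions. Probe A_64_P017160 (NM_001025289) had levels of −1.26, −1.12, −1.35, −0.49 and −1.44 in SHR 2-1, 2-3, 3-1, 3-3 and 3-4, against −1.32, −1.04, −1.11, −1.31 and −1.05 in WKY 1-2, 1-3, 1-5, 4-1 and 4-2. The strains overlapped, and the highest of the 10 arrays was SHR 3-3, at 0.80 more than the average of its strain's other arrays. The log2 difference was 0.03 ± 0.16 (SE, 95% interval −0.31 to 0.38, limma adjusted p = 0.931), and without SHR 3-3 it was −0.13. Probe A_64_P017163 (NM_001025291) had a mean level of −1.42 ± 0.19 in SHR and −1.62 ± 0.25 in WKY (SD, n = 5 each), with 3 SHR arrays above all WKY arrays and a difference of 0.20 ± 0.13 (adjusted p = 0.420 over all probes). Neither difference passed, and the upper ends of the intervals were 0.38 and 0.49.

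Cdh19, a cadherin of Schwann cell precursors and mature non-myelinating glia, was not well above background on 9 of the 10 arrays, 4 of 5 in SHR and 5 of 5 in WKY. It was above background in SHR 3-1 alone, at a processed signal of 18.6 units. It was therefore not tested, and no fold is given.

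**Figure D3:**
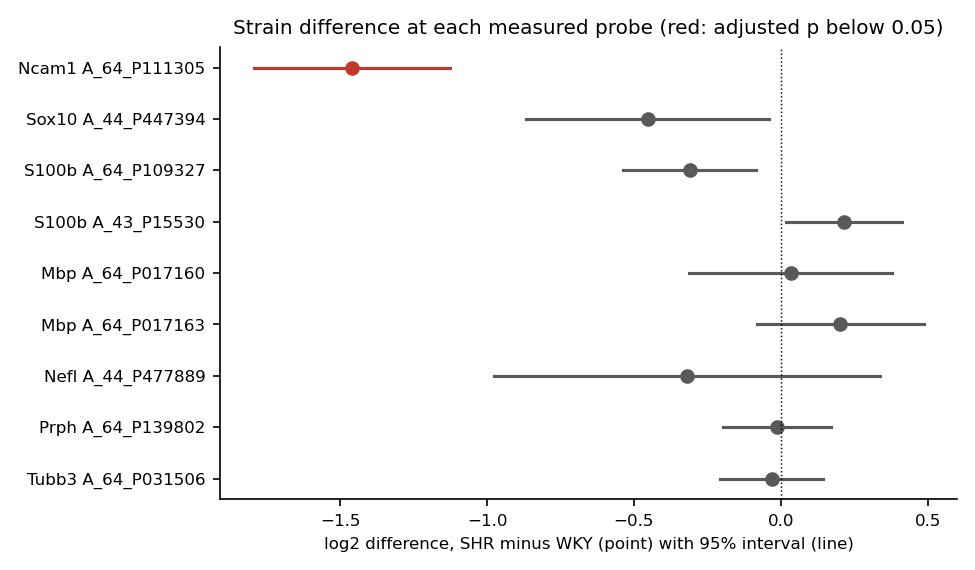
Log2 difference (SHR minus WKY, horizontal axis) with its 95% interval at each of the 9 probes that were tested in the fit of all kept probes. Ncam1, at −1.46, is the 1 probe past the threshold, and the 2 S100b probes lie on opposite sides of 0.

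Among the axon genes Nefl varied most. It encodes the light chain of neurofilaments, the filaments that set the calibre of myelinated axons. Its level was −1.11, −0.74, −0.93, −0.11 and −0.46 in SHR 2-1, 2-3, 3-1, 3-3 and 3-4, and 0.52, 0.32, −0.95, −0.62 and −1.02 in WKY 1-2, 1-3, 1-5, 4-1 and 4-2. The 2 highest values were those of WKY 1-2 and 1-3, the arrays of slide 3, and the 3 other WKY arrays lay within the range of SHR. The log2 difference was −0.32 ± 0.31 (SE, 95% interval −0.99 to 0.35, limma adjusted p = 0.596; exact permutation p = 0.397), and −0.24 on slide 2. It was −0.10 without WKY 1-2, −0.15 without WKY 1-3, −0.21 without SHR 2-1 and −0.11 with the slide as a random block, and −0.52 with array weights. WKY 1-2 and 1-3 share both the slide and the first number of their titles. WKY 1-5 shares that title number but was on slide 2, and its level was −0.95. The part of the slide or of the title number in the Nefl level was not tested.

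Prph encodes peripherin, an intermediate filament of peripheral neurons, and Tubb3 the beta-III tubulin of neuronal microtubules. Both hardly varied over the arrays. Prph levels ran from −1.80 to −1.49 in SHR and from −1.75 to −1.58 in WKY, and Tubb3 levels from −2.51 to −2.33 in SHR and from −2.50 to −2.27 in WKY, so that the strains overlapped in both. Their differences were −0.01 ± 0.08 (95% interval −0.19 to 0.17) and −0.03 ± 0.08 (−0.20 to 0.14), and both turned positive with quantile normalisation, scaling to the median or the authors' values. The limma adjusted p was 0.948 for Prph and 0.864 for Tubb3.

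Among other genes of the Schwann cell and of myelin no call was made. Over all 14711 genes tested, 2990 were at an unadjusted p below 0.05 in limma, the base for such counts here and below. Of the 34 listed genes 30 were tested and 0 passed, with 5 at an unadjusted p below 0.05 in limma. Their median difference was −0.03, against −0.02 for all genes, and their range −0.68 to 0.49. Also without SHR 3-3, 0 of the 30 passed. Dhh, the hedgehog ligand that Schwann cells use to organise the nerve sheath, had a mean level of 2.91 ± 0.38 in SHR and 3.60 ± 0.44 in WKY (SD, n = 5 each), a difference of −0.68 ± 0.22 (SE, limma adjusted p = 0.101). Fa2h, which makes the hydroxylated fatty acids of myelin lipids, differed by −0.68 ± 0.53 (adjusted p = 0.501), and SHR 3-3 alone was low in it, at −0.04 against 2.89 to 3.28 in the other SHR arrays. Without SHR 3-3 the Fa2h difference was −0.04.

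Further genes of myelin are given here for their role. Pmp22, a membrane protein of compact peripheral myelin, differed by 0.17 ± 0.28, Mag, an adhesion protein between axon and myelin, by 0.21 ± 0.09 and Cnp, an enzyme of myelinating glia, by 0.27 ± 0.10 (SE, n = 5 per strain), and none of these 3 passed (limma adjusted p from 0.133 to 0.780). Egr2, the transcription factor that switches on myelination together with Sox10, had a difference of 0.49 ± 0.24 (adjusted p = 0.275). Ngfr, the low-affinity neurotrophin receptor of non-myelinating Schwann cells, differed by 0.04 ± 0.09, and Gap43, a protein of growing axons and of those same glia, by 0.01 ± 0.09.

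Of the 27 genes of the axon cytoskeleton and of synaptic vesicles 20 were tested and 1 was higher, with a list median of −0.03. It was Map2, which binds microtubules in dendrites and neuronal cell bodies. Its level was −1.32, −1.55, −1.42, −1.89 and −0.94 in SHR 2-1, 2-3, 3-1, 3-3 and 3-4, against −2.24, −2.35, −2.52, −2.47 and −2.36 in WKY 1-2, 1-3, 1-5, 4-1 and 4-2. The strains did not overlap. Map2 rose by 0.97 ± 0.15 (SE, 1.95-fold higher in SHR, limma adjusted p = 0.00274). The difference was 1.14 with the slide as a block and within slide 2, where it did not pass (adjusted p = 0.259 and 0.0616). The remaining 19 genes differed by −0.18 to 0.18 and did not pass. Among them, named for their role, the neurofilament chains Nefm and Nefh differed by 0.15 ± 0.08 and −0.03 ± 0.12, and the neuronal ubiquitin hydrolase Uchl1 by −0.10 ± 0.11.

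Genes of autonomic transmitters and ganglion identity showed no call in 17 tested of 19 listed (median 0.04, 0 at an unadjusted p below 0.05). Slc5a7, the choline transporter of cholinergic endings, differed by 0.18 ± 0.13 (SE, limma adjusted p = 0.468) and Nos1, the neuronal nitric oxide synthase, by −0.17 ± 0.15 (adjusted p = 0.572). Slc5a7 was dim, with a mean level of −4.43 in SHR and −4.61 in WKY, though above background on 5 of 5 arrays of each strain. Its difference is therefore one between dim signals. The rate-limiting enzyme of catecholamine synthesis, Th, named for its role, differed by 0.06 ± 0.16 (adjusted p = 0.862). Dbh, which makes noradrenaline, had 1 named probe, above background on 0 arrays.

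In the list of neurotrophic ligands and receptors 18 of 20 genes were tested and 0 passed (median 0.02, 3 at an unadjusted p below 0.05). Gfra2, the receptor subunit for neurturin, the factor that maintains parasympathetic innervation of salivary glands, had a level of −2.57 in SHR 3-3 and of −1.03 to −0.52 in the 4 other SHR arrays, with a mean of −1.20 ± 0.80 in SHR and −0.35 ± 0.32 in WKY (SD, n = 5 each). The difference was −0.85 ± 0.32 (SE, limma adjusted p = 0.155), and −0.51 without SHR 3-3 (adjusted p = 0.105). Erbb2, the partner of the neuregulin receptor that Schwann cells depend on, differed by 0.47 ± 0.18 (adjusted p = 0.162), and by 0.27 without SHR 3-3, its highest array. Nrtn, neurturin itself, named for its role, differed by 0.25 ± 0.12 (adjusted p = 0.272). Without SHR 3-3, 1 gene of the list was called lower, the neurotrophin Ntf3, which with all arrays differed by −0.24 ± 0.09 (adjusted p = 0.172).

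**Figure D4:**
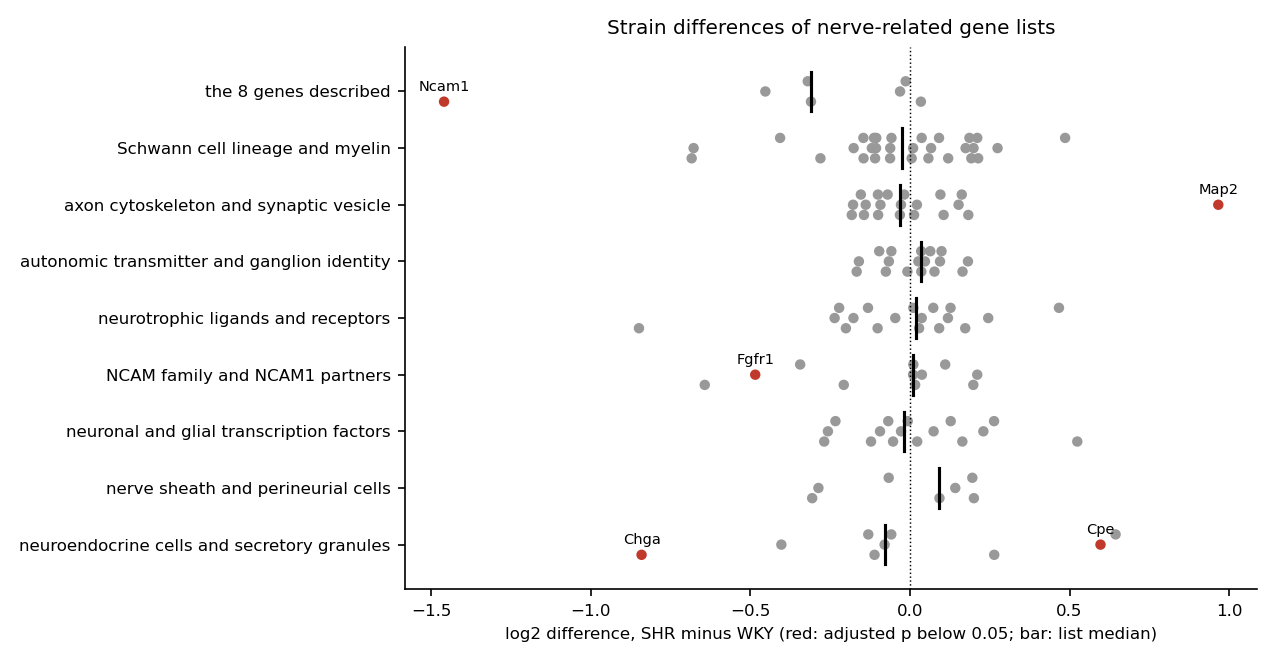
Log2 differences (SHR minus WKY, horizontal axis) of the tested genes of 9 nerve-related lists, 1 point per gene, with the list median as a bar and genes past the threshold in red and named. Most points lie between −0.5 and 0.5, and Ncam1, Map2, Fgfr1, Chga and Cpe are the named points.

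Of the relatives and partners of NCAM1, 11 of 14 listed genes were tested and 1 was lower (median 0.01). It was Fgfr1, a fibroblast growth factor receptor through which NCAM1 signals in neurons. Its level was −1.86, −2.06, −2.25, −1.99 and −1.87 in SHR 2-1, 2-3, 3-1, 3-3 and 3-4, against −1.40, −1.33, −1.68, −1.72 and −1.48 in WKY 1-2, 1-3, 1-5, 4-1 and 4-2. The strains did not overlap. Fgfr1 fell by 0.48 ± 0.11 (SE, limma adjusted p = 0.0251), but its other probe, also designed to NM_024146, differed by −0.13 ± 0.13 (adjusted p = 0.604 over all probes), and the mean of both by −0.31 (adjusted p = 0.0700). With the slide as a block and on slide 2 the difference was −0.24 and the call was lost (adjusted p = 0.841 on slide 2). Leaving out any of SHR 2-3, WKY 1-2, 1-3 and 4-2 ended the call, with a highest adjusted p of 0.0742. The enzymes that add polysialic acid to NCAM1, St8sia2 and St8sia4, differed by −0.21 ± 0.12 and 0.20 ± 0.10, and the related adhesion molecules Nrcam and L1cam by −0.34 ± 0.11 (adjusted p = 0.0918) and 0.21 ± 0.13. Ncam2 was above background on 3 arrays and was not tested.

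Transcription factors of neurons and glia gave 0 calls in 16 tested of 19 listed (median −0.02, 2 at an unadjusted p below 0.05 in limma). Tfap2b was at 0.52 ± 0.18 (SE, adjusted p = 0.132, and 0.35 without SHR 3-3) and Hand1 at −0.27 ± 0.13 (adjusted p = 0.261). Hand1 was dim, above background on 2 of 5 SHR and 5 of 5 WKY arrays, so its difference is one between signals near background. Genes of the nerve sheath likewise gave 0 calls in 7 tested of 12 (median 0.09, 1 at an unadjusted p below 0.05). Pdgfra, carried by fibroblasts of the nerve sheath and of connective tissue, differed by −0.31 ± 0.27 and the transcription factor Osr2 by −0.29 ± 0.32. Osr2 was dim as well, above background on 3 of 5 SHR and 2 of 5 WKY arrays.

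The chromosomal neighbours of Ncam1 were read beside it. In the order of the RefSeq genes of assembly GRCr8, the nearest measured genes on one side were Ttc12, Ankk1, Drd2, Tmprss5 and Zw10, and on the other Plet1, Pts, Bco2, Il18 and Tex12. Of these 10 genes 1 was lower and 0 higher in SHR, with differences of −0.78 to 0.14 and a median of −0.16. Over all genes tested, 2.85% were called lower and 1.51% higher. The immediate neighbours Ttc12 and Plet1 differed by −0.06 ± 0.11 and −0.48 ± 0.25 (SE, limma adjusted p = 0.793 and 0.314), and Drd2, the dopamine D2 receptor, by −0.26 ± 0.13 (adjusted p = 0.299). The gene that fell was Il18, a cytokine, with −1.82, −2.04, −1.73, −2.34 and −1.95 in SHR 2-1, 2-3, 3-1, 3-3 and 3-4, against −1.32, −1.06, −1.47, −0.98 and −1.14 in WKY 1-2, 1-3, 1-5, 4-1 and 4-2. Its difference was −0.78 ± 0.13 (adjusted p = 0.00504), and −0.62 on slide 2 (adjusted p = 0.538).

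**Figure D5:**
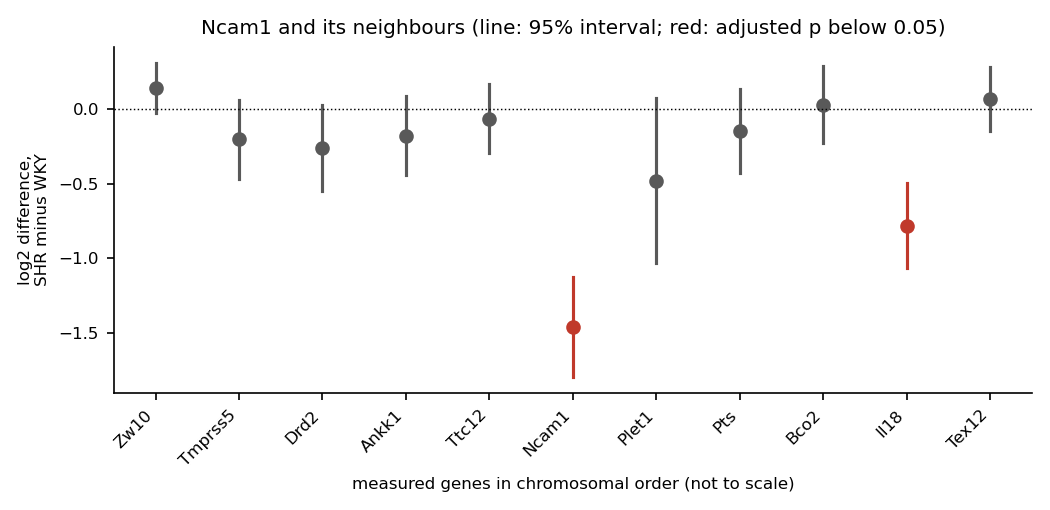
Log2 difference (SHR minus WKY, vertical axis) with its 95% interval for Ncam1 and the 5 nearest measured genes on each side, in chromosomal order. Ncam1 (−1.46) and Il18 (−0.78) are past the threshold, and the genes on either side of Ncam1 are not.

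The genes whose level over the 10 arrays was most like that of Ncam1 were Sptssa, a subunit of the enzyme that starts sphingolipid synthesis (Pearson r = 0.967), the interferon-induced gene Ifi44l (0.966), the major histocompatibility class II chain gene RT1-Db1 (0.962), the immunoproteasome subunit gene Psmb10 (0.961) and Serhl2 (0.959). All 5 were called lower in SHR, by −0.63, −0.87, −2.59, −0.74 and −0.98 on the log2 scale (SHR minus WKY), and this shared difference enters the likeness, which is a description over the same 10 arrays. With the slide as a block none of the 5 calls held (limma adjusted p from 0.0737 to 0.471), and on slide 2 alone only that of RT1-Db1 did. Another probe of RT1-Db1 differed by −0.69. None of the 5 is in a nerve list used here.

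Lists of other cell types were read beside these results. As said above, Ncam1 is used by NK cells in human and by developing muscle. Whether such cells use it in these 14-week-old rats was not tested. For a list, the levels of its tested genes were put back on the linear scale, as multiples of the array's 75th percentile, and summed. Such a sum weighs probes by their brightness, so that a few bright probes can set it. It does not measure the amount of a cell type. Of the NK cell genes 7 of 9 were tested and 0 passed (median −0.05), and their summed level was 1.86 to 2.43 in SHR and 2.29 to 2.53 in WKY. Klrk1, an activating receptor, differed by −0.33 ± 0.09 (SE, limma adjusted p = 0.0631) and was called lower without SHR 3-3, while Klrd1 differed by −0.33 ± 0.18 (adjusted p = 0.318). Of the skeletal muscle genes 13 of 14 were tested and 0 passed (median 0.00), with a summed level of 51.2 to 81.5 in SHR and 48.0 to 55.3 in WKY. Tnnt1, slow troponin T, differed by −0.65 ± 0.19 (adjusted p = 0.0754) and Ckm, muscle creatine kinase, by 0.49 ± 0.17 (0.134). The part of these cells in the Ncam1 difference was not tested.

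Adipocyte genes, 11 tested of 12, had 0 calls and a median of −0.07, with summed levels of 11.9 to 19.5 in SHR and 17.9 to 19.5 in WKY. Lpl, lipoprotein lipase, differed by −0.63 ± 0.26 (SE, limma adjusted p = 0.197), and Cidea, a lipid droplet protein, by −0.44 ± 0.16 (0.143) and was called lower without SHR 3-3. Melanocyte genes, which share the neural crest origin of Schwann cells, had 0 calls in 4 tested of 7 (median 0.05), with summed levels of 1.61 to 2.06 in SHR and 1.63 to 2.12 in WKY. Mlana differed by 0.16 ± 0.11 and Tyrp1 by −0.15 ± 0.21.

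Salivary acinar and intercalated duct genes, of epithelial cells that can express Sox10, had 2 higher and 2 lower among 14 tested of 18, with a median of 0.23. Over all genes tested, 1.51% were called higher and 2.85% lower. The summed levels of the list were 683 to 1146 in SHR and 590 to 692 in WKY. Smgc, submandibular gland protein C, differed by −4.10 and the proline-rich protein gene Prpmp5 by −1.73, whereas the transcription factor gene Etv1 differed by 0.73 and Oprpn, a salivary peptide precursor gene, by 0.61. With the slide as a block Prpmp5, Etv1 and Oprpn lost their calls (limma adjusted p = 0.0613 and 0.319 for the first and second). On slide 2 alone, with its single SHR array, Etv1 (0.79) and Oprpn (0.46) lost theirs as well. An intensity trend with robust variances also ended the call of Oprpn (limma adjusted p = 0.0580). Oprpn was also at 0.09 after normexp and quantile normalisation and at 0.16 with quantile normalisation or the authors' values, without a call, and 8 of the 10 fits that left out 1 array lost it (adjusted p up to 0.106). Without SHR 3-3, 4 were higher and 2 lower. Genes of the granular and striated ducts had 1 lower, the bicarbonate cotransporter Slc4a4 (−0.47, and −0.35 at its other probe, which did not pass), among 12 tested of 14 (median −0.31), and 2 lower without SHR 3-3, where the median was 0.06. Slc4a4 lost its call with the slide as a block (−0.34), on slide 2 (adjusted p = 0.791) and without WKY 1-2 (0.0555). Their summed level was 338 to 915 in SHR and 598 to 667 in WKY. The part of these epithelial cells in the Sox10 level was not tested.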

How the data were processed

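Total RNA of 10 submandibular glands was hybridised to one-colour Agilent arrays, 1 per rat. Agilent Feature Extraction 11.0.1.1 had turned the scans into spot values, per the file headers. The deposited processed signal is a linear, background-subtracted intensity with no scaling from array to array. For 30423 probes the authors also deposited log2 values, and no source used here says how these were made.

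Each log2 intensity was reduced by its array's 75th percentile over non-control probes. Spots marked as outliers were set to missing (45 values missing in the kept set), and repeat spots were averaged per probe. Of 30367 probes 29266 were kept, those above background on 5 or more arrays; a probe counted as above where no more of its spots failed than passed. RefSeq accessions of assembly GRCr8 gave symbols to 18005 probes, and the brightest kept probe stood for a gene. Of 15168 named genes 14711 were tested with limma (SHR minus WKY, two-sided, Benjamini-Hochberg over all genes, threshold 0.05). A second fit covered all kept probes. Single members were also tested with an exact permutation test over the arrays. Arrays scanned together were taken as 1 slide.

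The 8 genes and the gene lists were chosen with earlier results of these data known. The genes named are all members, in each other list up to 4 genes past the threshold (or the 2 with the largest differences where none passed), 10 measured neighbours of Ncam1 and the 5 genes most like it. A few further genes of the lists are given for their role, chosen after their values were seen. Some genes of the lists are not reported here by name. The lists are Schwann cell lineage and myelin, axon cytoskeleton and synaptic vesicle, autonomic transmitter and ganglion identity, neurotrophic ligands and receptors, NCAM family and NCAM1 partners, neuronal and glial transcription factors, nerve sheath, salivary acinar cells, salivary ducts, adipocytes, skeletal muscle, NK cells, melanocytes and neuroendocrine cells.

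The alternatives were normexp background correction (offset 50) on the median signal, other scalings, the authors' values, other filters, all probes of a gene, the slide as a block, other spread models and leaving out each array. The median of the members under each alternative, and the list counts and named genes without SHR 3-3, were added after seeing the data. The fit was tested on simulated data. Versions were R 4.3.3, limma 3.58.1, data.table (1.17.8), Python 3.11.15, numpy 2.4.6, pandas 2.3.3, scipy 1.17.1 and matplotlib 3.10.9.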

Additional observations from a re-analysis of the deposited data

Results flagged for a closer look

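Each gene named by the rule was searched for an array far from the other 4 of its strain (Dixon's test, critical value 0.71). Of 102 strain groups 7 held such an array, where chance gives about 1 in 20. Of the 18 groups of nerve and Schwann cell gene probes 0 did. Fa2h, Gfra2, Erbb2, Tfap2b and Tyrp1 were named for the size of their differences, which can favour genes with 1 extreme array. The 1 in 20 is therefore not a fair base for them. In SHR 3-3 the level of Fa2h was −0.0405 (2.89 to 3.28 in the other SHR arrays), of Gfra2 −2.57 (−1.03 to −0.52), of RT1-Db1 −1.72 (−0.73 to −0.40), of Erbb2 2.30 (1.27 to 1.43) and of Tfap2b 2.36 (1.40 to 1.64). In SHR 2-3 Tyrp1 was at −4.20 (−3.12 to −2.95). In WKY 4-1 Fa2h was at 3.48 (3.10 to 3.14 in the other WKY arrays).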

How the results depend on the processing

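Ncam1 kept its direction under all 24 alternatives (−1.59 to −1.10) and lost its call in 1, the slide as a block. The alternatives are not independent, and several could not move its difference. It stayed at −1.46 with the other filters, with outlier spots kept, with the mean of kept probes and with the intensity trend. The count of the 8 genes called lower was 1, and became 0 with the slide as a block, 3 with the slide as a random block and 2 with a random block by the titles' first number. Those random blocks had estimated correlations of −0.19 and −0.16. All genes called higher and lower, 222 and 419, were 12 and 32 with the slide as a block, 1350 and 2101 with the slide as a random block, 14 and 38 on slide 2 alone, and 669 and 1110 with the title number as a random block. Higher calls were 351 with quantile normalisation, 336 with median scaling, 423 from the authors' table and 341 with array weights. Without 1 array they ranged from 125 to 237, and lower calls from 218 to 512. Calls were fewest without WKY 1-3 (125 and 218), and the higher calls also fell to 132 without WKY 1-2, 144 without WKY 4-1 and 144 without SHR 3-4, the lower calls to 239 without WKY 1-2 and 272 without WKY 4-1. Uncalled genes near 0 changed sign. Mbp was at −0.10 with the slide as a block and on slide 2, −0.0579 with array weights, and −0.13 to 0.11 without 1 array. Prph was at 0.0206 with quantile normalisation, 0.0187 with median scaling, 0.0260 from the authors' table, 0.0125 with the slide as a random block, and −0.0590 to 0.0179 without 1 array. Tubb3 was at 0.0242 with quantile normalisation, 0.00101 with median scaling, 0.0248 from the authors' table, 0.12 on slide 2 and in the block fit, and −0.0611 to 0.0045 without 1 array. No paired analysis was possible because the strains share no title numbers. S100b was called in both random-block fits (−0.38 and −0.32, limma adjusted p = 0.00577 and 0.0322) and Sox10 in that by slide (−0.55, adjusted p = 0.0174). For these changes the cause was not tested, except that slide 2 holds 1 SHR array.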

Other observations

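Neuroendocrine and secretory granule genes, which nerve endings share with endocrine cells, had 1 higher and 1 lower member among 9 tested of 10, with a median log2 difference of −0.08 (SHR minus WKY). Over all genes tested, 1.51% were called higher and 2.85% lower. Chga, chromogranin A, a protein of the granule core, had levels of −3.65, −3.96, −3.94, −3.64 and −3.70 in SHR 2-1, 2-3, 3-1, 3-3 and 3-4, against −2.67, −2.74, −3.04, −3.24 and −2.99 in WKY 1-2, 1-3, 1-5, 4-1 and 4-2. The strains did not overlap, and Chga fell by 0.84 ± 0.12 (SE, n = 5 per strain, limma adjusted p = 0.00176). Cpe, the carboxypeptidase that trims peptide precursors, had levels of −2.03 to −1.48 in SHR and −2.36 to −2.18 in WKY, and rose by 0.60 ± 0.11 (limma adjusted p = 0.00778). Within slide 2 the differences were −0.56 and 0.62, and neither passed (adjusted p = 0.435 and 0.302). The counts were the same without SHR 3-3.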
